A study of Mus musculus with 20 samples.

Results

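Pancreatic islets of ob/ob mice labelled as given HFD for 39 weeks and then CRD for 2 days were compared, gene by gene, with islets of mice labelled as given HFD for 39 weeks. The comparison held 10 of the 20 arrays of the series, chosen by their titles: 5 CRD arrays and 5 HFD arrays, each from 1 mouse. All mice were male and of the strain B6.V-Lep ob/ob, so the controls carried the same Lep mutation. The labelled age was 39 weeks plus 2 days for the CRD group and 39 weeks for the HFD group, and the labels do not spell out either diet's name. Since 39 weeks is given both as the age and as the time on HFD, the true length of HFD feeding is uncertain. The other 10 arrays, from mice given the same diets at 18 weeks, entered the model and served as a second age. Islets were freed with collagenase and picked by hand, and levels are log2 of the deposited intensities, given in the order of replicates 1 to 5. Of 26159 named genes on the array, 18311 were tested with limma, and a gene passed at a Benjamini-Hochberg adjusted p of 0.05.

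The pancreatic islet holds insulin-making beta cells together with glucagon, somatostatin and pancreatic polypeptide cells. Mice without leptin overeat and become obese and insulin resistant, which puts a lasting demand for insulin on the beta cell. Beta cells take up glucose through the transporter GLUT2, fold proinsulin in the endoplasmic reticulum (ER), store it in granules and divide rarely in adult animals. When beta cells do divide, E2F factors switch on the replication genes, and the DREAM and B-MYB complexes time the mitotic genes. A load of unfolded protein in the ER is read by the sensors ATF6, IRE1 and PERK.

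The arrays fell into 3 sets that no label records, here called A, B and C, found by clustering on 1315 chemosensory receptor genes. Over these genes, arrays of 1 set correlated at 0.925 to 0.978 and arrays of different sets at 0.847 to 0.916. The CRD group held 4 arrays of set A and 1 of set C (replicate 3), and the HFD group held 3 of set A, 1 of set B (replicate 5) and 1 of set C (replicate 4). Both groups thus shared sets A and C. Some counts are given also from a fit blocked by array set, and counts given without one may also move with it. Insulin (Ins2) stood at the top of the table, at 17.94 on all CRD arrays and 17.82 to 17.94 on the HFD arrays, a range in which a change of Ins2 could not be judged. Summed intensities of 25 acinar markers ran from 10382 to 61387 on the CRD arrays and from 57740 to 104074 on the HFD arrays, and none of the markers was at 0. The highest CRD array, replicate 5, alone reached into the range of the HFD arrays. The part of acinar RNA in the results below was not tested.

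In total 641 genes rose (3.5% of those tested) and 887 fell (4.84%), together 8.34%. At least 2-fold changes made up 331 of the rises and 356 of the falls, and at least 4-fold changes 66 and 23. For 2326 genes (12.7%) the groups did not overlap, 711 higher (3.88%) and 1615 lower (8.82%), and 1352 of the genes past the threshold were among them. The median log2 fold change of all tested genes was 0.02. Blocked by array set, 1372 genes rose (7.49%) and 1427 fell (7.79%), and all 1528 genes called without it were called in the same direction. Within set A alone, 4 CRD against 3 HFD arrays, 427 genes rose (2.33%) and 220 fell (1.2%), and all 641 rising and all 887 falling genes kept their sign, as did 641 and 886 of them between the 2 arrays of set C. When 1 array at a time was left out, 467 to 655 genes rose and 507 to 880 fell, and the falling count was 545 without CRD replicate 4 and 527, 568 and 507 without HFD replicates 1, 4 and 5. Of the 144 genes named here and in the closing observations that passed, 107 passed in all 10 of these fits, and each array left out ended 14 to 29 of the calls. The other 37, with adjusted p of up to 0.137 in some fit, were Alg12, Bbs5, Bckdhb, Bhlha15, Bhlhe41, Btg1, Cdkn1b, Cdkn2b, Cdkn2c, Cel, Cox7a2, Cplx2, Ctrl, E2f1, E2f2, Ero1b, Fabp4, Galr1, Gcg, Hsp90b1, Isl1, Itpr3, Kif3a, Klf6, Neurod1, Nkx6-1, Pcsk1, Pik3ca, Prss1, Relb, Sec11c, Sik1, Slc16a12, Slc3a2, Stat5a, Thrb and Uqcrq. Among them Cdkn2c, Cel, E2f1, Prss1, Slc3a2 and Thrb missed the threshold in 9 of the 10 fits. Ctrl, Fabp4, Isl1, Itpr3, Pcsk1 and Pik3ca missed it in 8 of the 10.

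**Figure D1:**
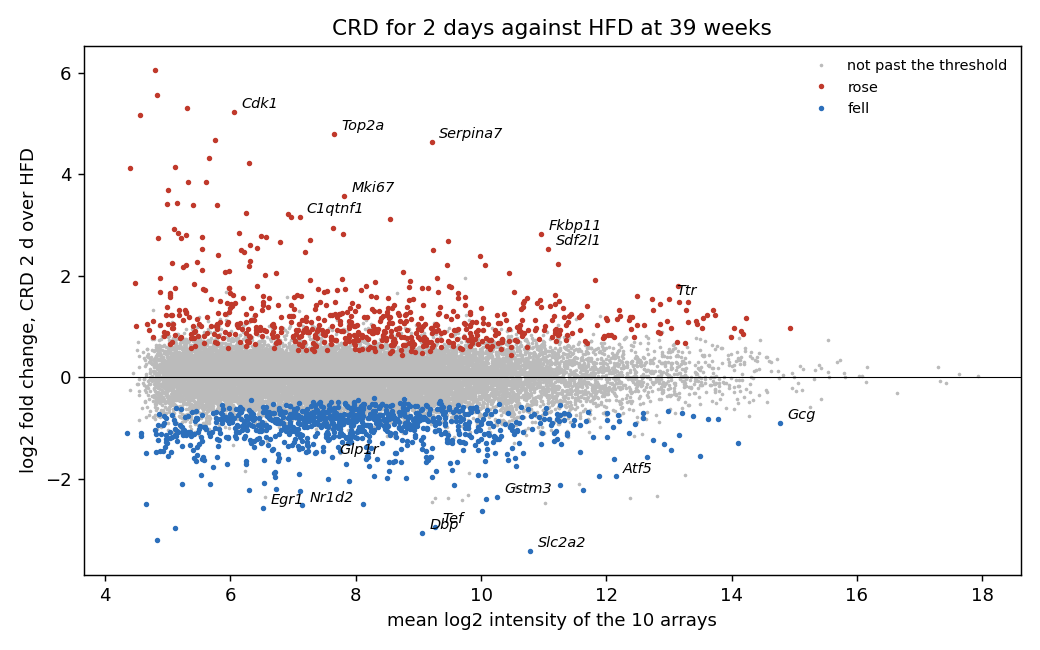
Each point is 1 of the 18311 tested genes, placed by its mean log2 intensity over the 10 arrays (horizontal) and its log2 fold change of CRD over HFD (vertical), in red for the 641 that rose, in blue for the 887 that fell and in grey for the rest. Cell cycle genes reach the highest fold changes on this scale, several at low mean levels, and Slc2a2 lies lowest, at -3.42.

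Cell cycle genes had the 7 largest rises on the log2 scale among the tested genes, but with 16 added to each intensity before the log Serpina7, a thyroid hormone carrier, led at 4.46 ± 0.30, ahead of Top2a at 4.31 ± 0.41. Of the 151 members of 6 cell cycle lists on the array, 105 passed the filter on low levels, and 54 of these rose and 2 fell, with a median log2 fold change of 0.86. In the fit without that filter 89 of the 151 rose and 2 fell, where 6.19% of all 26159 genes were called, 2.93% higher and 3.26% lower. The filter took the mean of all 20 arrays, so a member dark on HFD could pass through its CRD level alone. The promoters of Cdk1 and Plk1, 2 of the 3 mitotic genes of largest change that the RefSeq table holds, are shown with the motifs that time mitotic genes. They run from 250 bases before to 50 after the start on GRCm38.p6, in the direction of the gene, and the capitals mark the cell cycle homology region TTTGAA (CHR) and the CCAAT box (ATTGG on the other strand).
Cdk1, chr10:69352863-69353162, minus strand: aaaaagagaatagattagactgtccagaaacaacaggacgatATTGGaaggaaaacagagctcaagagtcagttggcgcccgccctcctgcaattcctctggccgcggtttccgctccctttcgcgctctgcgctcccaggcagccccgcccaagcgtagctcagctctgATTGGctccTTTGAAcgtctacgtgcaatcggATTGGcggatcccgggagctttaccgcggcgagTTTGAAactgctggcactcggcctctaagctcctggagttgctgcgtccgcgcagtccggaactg
Plk1, chr7:122159185-122159484, plus strand: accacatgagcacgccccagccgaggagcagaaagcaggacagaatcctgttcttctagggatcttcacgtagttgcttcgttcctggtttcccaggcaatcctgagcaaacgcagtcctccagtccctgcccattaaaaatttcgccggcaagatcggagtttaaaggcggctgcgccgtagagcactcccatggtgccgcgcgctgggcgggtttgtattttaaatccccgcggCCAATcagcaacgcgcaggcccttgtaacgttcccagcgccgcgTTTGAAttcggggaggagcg
The CHR stood 71 and 15 bases before the start in Cdk1 and 30 after it in Plk1. Searched on both strands, 31 of the 84 tested members with a promoter in the table held a CHR (36.9%), against 14.3% of the 14410 tested genes with one. A CCAAT box was in 66.7% of them against 38%, and an E2F site (TTTCCCGC or TTTGGCGC) in 23.8% against 2.38%. Birc5, also among the 3, held none of these letters in its window. The matches printed do not overlap one another and are matches of letters, not measured sites.

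Of the mitotic kinases and cyclins, Cdk1, Plk1 and cyclin A2 were below the table's median of 5.19 on all HFD arrays. Cdk1, the kinase that drives entry into mitosis, had log2 intensities of 8.38, 8.03, 9.24, 8.61 and 9.11 on the CRD arrays, against 3.29, 4.05, 2.92, 3.36 and 3.64 on the HFD arrays. Its log2 fold change, given here and after with its standard error (SE, n = 5 each), was 5.22 ± 0.36, adjusted p = 1.8e-08. Plk1, the polo kinase of spindle assembly, had 7.85, 7.33, 8.31, 7.60 and 8.70 on the CRD arrays, against 2.74, 2.86, 2.99, 1.97 and 2.68 on the HFD arrays (5.31 ± 0.37, adjusted p = 2.06e-08). The lowest CRD array lay 3.98 log2 units above the highest HFD array for Cdk1 and 4.34 for Plk1. Cyclin A2 (Ccna2), partner of the kinases in S and G2 phase, had 7.09, 6.46, 7.64, 7.07 and 7.68 on the CRD arrays, against 2.86, 3.88, 3.21, 3.38 and 1.91 on the HFD arrays (4.14 ± 0.39, adjusted p = 6.54e-07). Cyclin B2 (Ccnb2) rose by 3.39 ± 0.32, the centrosome kinase Aurka by 2.54 ± 0.34 and cyclin E1 (Ccne1), which opens S phase, by 1.59 ± 0.28. In this list 8 of 17 tested members rose and 1 fell. That one was cyclin D2 (Ccnd2), the D cyclin of growth-factor input in beta cells, and it was the brightest of those named here. Ccnd2 had 12.05, 12.03, 12.77, 12.26 and 12.21 on the CRD arrays, against 13.66, 13.03, 13.19, 13.85 and 14.23 on the HFD arrays, a change of -1.33 ± 0.27, adjusted p = 0.00318, with no overlap.

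Replication genes rose in 21 of 32 tested members and fell in 0, with a median of 1.25. Mcm5, a subunit of the helicase that opens origins, had 8.53, 8.32, 9.13, 8.19 and 8.55 on the CRD arrays, against 5.51, 5.03, 5.22, 5.69 and 5.46 on the HFD arrays (3.16 ± 0.27, adjusted p = 1.55e-07). Cdc6, which loads that helicase, had 6.87, 6.86, 7.80, 7.04 and 6.93 on the CRD arrays, against 3.49, 3.72, 3.92, 4.20 and 3.22 on the HFD arrays (3.39 ± 0.27, adjusted p = 9.47e-08). Its CRD replicate 3, the array of set C, was the highest in its group. The helicase loader Cdt1 rose by 2.85 ± 0.28, the GINS subunit Gins2 by 2.92 ± 0.24 and the ribonucleotide reductase subunit Rrm2, which supplies deoxynucleotides, by 2.41 ± 0.29. Uhrf1, which recruits the maintenance DNA methyltransferase to new strands, rose by 5.17 ± 0.49, with HFD levels of 1.00 to 2.77. Brca2, of homologous recombination, rose by 1.18 ± 0.22, while Atm, the kinase that signals double-strand breaks, fell by 1.09 ± 0.26 on the log2 scale; of 12 DNA repair and checkpoint genes tested no others passed, while without the filter 8 of the list's 20 genes rose and 1 fell.

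Kinetochore and spindle genes rose in 9 of 15 and 13 of 20 tested members, with 0 falling in either list. Top2a, the topoisomerase that untangles sister chromatids, had 9.53, 9.00, 10.83, 10.46 and 10.42 on the CRD arrays, against 5.51, 5.23, 4.90, 5.05 and 5.59 on the HFD arrays (4.79 ± 0.47, adjusted p = 9.69e-07). Mki67, the proliferation marker Ki-67, had 9.22, 8.62, 10.40, 9.45 and 10.30 on the CRD arrays, against 6.24, 5.85, 5.58, 5.81 and 6.65 on the HFD arrays (3.57 ± 0.38, adjusted p = 2.96e-06). CRD replicate 3 was the highest for both genes, and the lowest CRD array exceeded the highest HFD array by 3.41 for Top2a and 1.97 for Mki67. Cdc20, activator of the anaphase-promoting complex, had 7.76, 7.32, 8.46, 8.35 and 8.59 on the CRD arrays, against 3.74, 3.62, 2.99, 2.79 and 3.94 on the HFD arrays (4.68 ± 0.39, adjusted p = 1.24e-07). Survivin (Birc5), of the chromosomal passenger complex, had 7.57, 7.01, 8.72, 7.47 and 8.31 on the CRD arrays, against 2.93, 2.47, 1.41, 1.37 and 0.67 on the HFD arrays (6.04 ± 0.55, adjusted p = 3.67e-07), and the spindle assembly factor Tpx2 changed by 5.55 ± 0.56. The centromeric histone Cenpa rose by 4.32 ± 0.36, the outer kinetochore proteins Cenpf and Spc24 by 3.42 ± 0.53 and 2.47 ± 0.32, Cdca3, which triggers degradation of the mitotic inhibitor WEE1, by 4.21 ± 0.35, and anillin (Anln), of the cleavage furrow, by 2.80 ± 0.39. The deposited table gives no detection flags, so the folds of genes this dim on HFD depended on an unknown background. With 16 added to each intensity before the log, the change was 3.61 ± 0.31 for Birc5, 3.57 ± 0.28 for Plk1, 3.97 ± 0.29 for Cdk1 and 4.31 ± 0.41 for Top2a. It was 3.35 ± 0.30 for Tpx2, 2.96 ± 0.27 for Uhrf1, 2.71 ± 0.24 for Ccna2, 2.20 ± 0.31 for Cenpf and 1.94 ± 0.17 for Gins2.

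**Figure D2:**
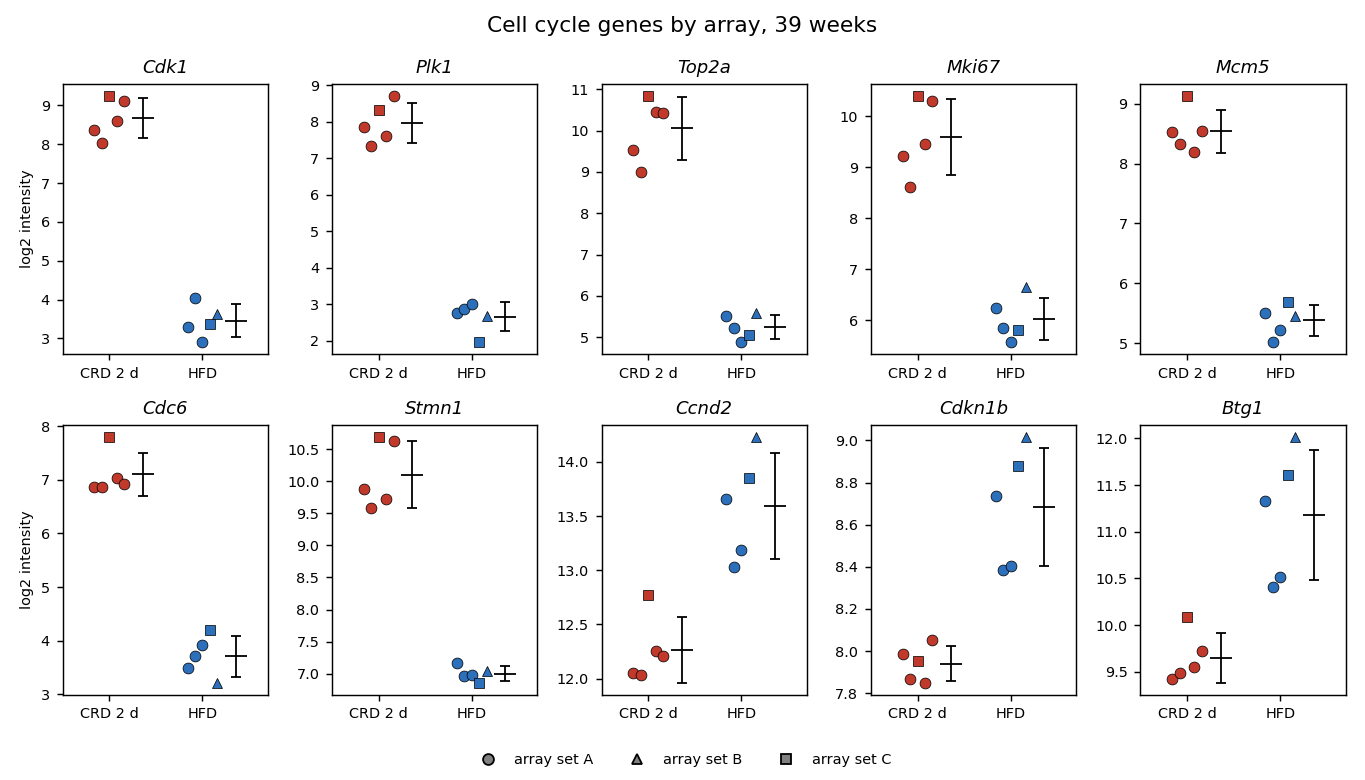
Log2 intensity (vertical) of 10 cell cycle genes on the 5 CRD arrays (red, left) and 5 HFD arrays (blue, right) at 39 weeks, with the array set as the point's shape and the mean ± SD beside the points. Cdk1, Plk1, Top2a, Mki67, Mcm5, Cdc6 and Stmn1 stand higher on every CRD array, and Ccnd2, Cdkn1b and Btg1 lower.

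Of 9 tested transcription factors of the cell cycle 2 rose and 0 fell, with a median of 0.37. Without the filter on low levels 3 of 12 rose, with a median of 0.48. The E2F factors E2f1 and E2f2, activators of the G1/S genes, rose by 0.93 ± 0.29 and 0.80 ± 0.22 (adjusted p = 0.0488 and 0.0283), and in both the groups overlapped. Of 14 CDK inhibitors and brakes 4 fell and 1 rose, beside 8.34% called over all tested genes. The list's median was -0.10, with 7 members above 0 and 7 below. With the array set as a block 4 fell and 3 rose, and within set A 0 passed in limma. Btg1, an antiproliferative factor of quiescent cells, had 9.42, 9.49, 10.08, 9.55 and 9.72 on the CRD arrays, against 11.33, 10.41, 10.52, 11.61 and 12.01 on the HFD arrays (-1.52 ± 0.43, adjusted p = 0.0303). Cyclin G2 (Ccng2), a FOXO target linked to arrest, had 4.07, 4.06, 3.77, 3.40 and 4.24 on the CRD arrays, against 5.46, 4.61, 5.14, 5.49 and 6.25 on the HFD arrays (-1.49 ± 0.34, adjusted p = 0.00822), and as it is dim on the CRD arrays its change was -0.92 ± 0.24 with 16 added before the log. p27 (Cdkn1b), inhibitor of cyclin E complexes, had 7.98, 7.87, 7.95, 7.85 and 8.05 on the CRD arrays, against 8.74, 8.39, 8.41, 8.88 and 9.02 on the HFD arrays (-0.74 ± 0.20, adjusted p = 0.0234). In each of the 3 the CRD arrays lay close together below all HFD arrays, whose replicates 4 and 5, of sets C and B, were the highest. Within set A the changes were -1.21 for Btg1, -1.13 for Ccng2 and -0.57 for Cdkn1b. p15 (Cdkn2b) fell by 0.91 ± 0.27 on the log2 scale and p18 (Cdkn2c), another INK4 inhibitor, rose by 0.89 ± 0.27.

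A pair of protein families that dividing cells need were looked at after their values were seen. Among 42 tested histone genes of the H1, H2A, H2B, H3 and H4 types 27 rose and 0 fell (64.3% called), with a median of 0.81. H2ac4, a replication-dependent H2A, had 10.49, 10.07, 11.14, 11.05 and 11.26 on the CRD arrays, against 8.03, 8.14, 8.23, 7.89 and 8.35 on the HFD arrays (2.67 ± 0.27, adjusted p = 1.25e-06), and the linker histone H1f5 rose by 2.78 ± 0.29. The replacement histones H3f3a and H3f3b, made outside S phase, had changes of -0.77 ± 0.25 and -0.38 ± 0.27 that did not pass. Histone copies are near-identical, so probes may not tell them apart. Of 14 tested tubulin entries 11 rose and 0 fell (78.6%), led by Tubb6, with 9.12, 9.33, 9.15, 9.22 and 9.23 on the CRD arrays, against 6.48, 6.02, 6.28, 6.36 and 6.84 on the HFD arrays (2.81 ± 0.21, adjusted p = 3.79e-08). Stathmin (Stmn1), which takes tubulin dimers out of microtubules, had 9.88, 9.59, 10.69, 9.73 and 10.64 on the CRD arrays, against 7.17, 6.97, 6.98, 6.86 and 7.04 on the HFD arrays (3.11 ± 0.33, adjusted p = 2.61e-06). Tcf19, a nuclear factor named for its growth-regulated expression, had 8.44, 8.12, 8.85, 8.90 and 8.78 on the CRD arrays, against 5.68, 6.09, 6.16, 5.75 and 5.93 on the HFD arrays (2.70 ± 0.24, adjusted p = 3.07e-07).

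Genes of the secretory pathway rose as a second group. Of 97 tested members of 4 ER lists 28 rose and 1 fell, with a median of 0.48, and blocked by array set 47 rose and 1 fell. All 97 passed the filter on low levels. The ER stress response element (ERSE) is written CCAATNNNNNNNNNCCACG and bound by NF-Y and ATF6. On either strand it was found before 23 of the 14410 tested genes with a promoter in the RefSeq table (0.16%). It was in 10 of the 31 tested members of the chaperone and degradation lists with a promoter there (32.3%). Of the 23 genes 6 rose, 1 fell and 16 did not pass, and their median log2 fold change was 0.20. The elements of the 7 that passed, chosen after their values were seen, are printed from RefSeq on GRCm38.p6, on the strand that reads CCAAT first, with the fixed letters in capitals.
Derl3 (2.75), chr10:75893242-75893260, minus strand: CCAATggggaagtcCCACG
Creld2 (1.77), chr15:88819520-88819538, minus strand: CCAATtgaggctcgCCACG
Hsp90b1 (1.16), chr10:86705638-86705656, minus strand: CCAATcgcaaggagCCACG
Hsp90b1 (1.16), chr10:86705533-86705551, plus strand: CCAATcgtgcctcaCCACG
Pdia6 (1.00), chr12:17266491-17266509, plus strand: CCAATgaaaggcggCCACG
Calr (0.98), chr8:84847075-84847093, plus strand: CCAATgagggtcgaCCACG
Alg12 (0.60), chr15:88819520-88819538, minus strand: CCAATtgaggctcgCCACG
Ero1b (-1.30), chr13:12565682-12565700, minus strand: CCAATgaggcgggaCCACG
Creld2 and Alg12 are neighbours that share 1 element. ERSE matches stood also before Hspa5, Syvn1, Dnajc3 and Canx, none of which passed.

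Folding factors led the group, with 12 of 22 tested chaperones rising and 1 falling. Fkbp11, a prolyl isomerase of secretory cells, had 12.00, 12.19, 12.96, 12.26 and 12.44 on the CRD arrays, against 9.66, 9.34, 9.57, 9.83 and 9.34 on the HFD arrays (2.82 ± 0.21, adjusted p = 2.73e-08). Sdf2l1, which works with BiP and ERdj3, had 12.05, 12.37, 12.55, 12.57 and 12.14 on the CRD arrays, against 9.82, 9.54, 9.81, 9.79 and 10.08 on the HFD arrays (2.53 ± 0.21, adjusted p = 1.37e-07). Creld2, a stress-induced disulfide isomerase-like protein, had 10.63, 10.90, 10.71, 9.90 and 9.90 on the CRD arrays, against 8.73, 8.28, 8.62, 8.54 and 9.02 on the HFD arrays (1.77 ± 0.26, adjusted p = 0.00013). All 3 were higher on every CRD array, and the smallest gap between the groups, in Creld2, was 0.88. The abundant chaperones moved less: GRP94 (Hsp90b1) had 14.74, 15.22, 15.24, 14.39 and 14.43 on the CRD arrays, against 13.85, 13.02, 13.26, 14.06 and 14.06 on the HFD arrays (1.16 ± 0.33, adjusted p = 0.0337), and calreticulin (Calr) had 15.45, 15.40, 15.70, 15.37 and 15.18 on the CRD arrays, against 14.64, 14.03, 14.28, 14.74 and 14.51 on the HFD arrays (0.98 ± 0.22, adjusted p = 0.00594). Pdia6, a disulfide isomerase, rose by 1.00 ± 0.23 and cyclophilin B (Ppib) by 1.31 ± 0.25. BiP (Hspa5), the central ER chaperone, overlapped between the groups, with 14.18, 14.17, 14.70, 13.88 and 13.61 on the CRD arrays, against 14.00, 13.24, 13.53, 14.05 and 14.20 on the HFD arrays (0.30 ± 0.34, adjusted p = 0.693). Ero1b, the oxidase that drives disulfide formation in proinsulin, was the member that fell, with 12.98, 13.09, 14.13, 13.58 and 13.45 on the CRD arrays, against 14.89, 14.25, 14.41, 15.05 and 15.11 on the HFD arrays (-1.30 ± 0.34, adjusted p = 0.0198).

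Export, glycosylation and disposal followed. Derl3, of the channel that returns misfolded proteins to the cytosol, had 7.32, 7.29, 6.98, 6.43 and 6.63 on the CRD arrays, against 3.53, 4.41, 4.77, 3.73 and 4.43 on the HFD arrays (2.75 ± 0.26, adjusted p = 7.1e-07), and 3 of 15 degradation genes rose, the others being Edem2 (1.22 ± 0.30) and Derl1 (1.12 ± 0.19). Among 32 genes of the translocon, signal peptidase and N-glycosylation 9 rose and 0 fell. The oligosaccharyltransferase subunit Dad1 had 14.12, 14.02, 13.90, 14.27 and 13.94 on the CRD arrays, against 12.20, 11.97, 12.38, 12.11 and 12.60 on the HFD arrays (1.80 ± 0.19, adjusted p = 3.18e-06). The glucosyltransferase Alg5 rose by 1.65 ± 0.24, the signal peptidase subunits Sec11c and Spcs1 by 1.31 ± 0.35 and 1.21 ± 0.29, the translocon-associated Ssr4 by 1.23 ± 0.26 and the mannosyltransferase Alg12 by 0.60 ± 0.18. Of 28 ER to Golgi genes 4 rose, and Kdelr3, which returns escaped ER residents, had 11.03, 11.20, 11.69, 11.23 and 10.70 on the CRD arrays, against 8.89, 8.37, 8.98, 8.90 and 9.70 on the HFD arrays (2.20 ± 0.30, adjusted p = 5.7e-05). The cargo receptors Tmed3 and Surf4 rose by 1.33 ± 0.26 and 1.02 ± 0.24. In the fit blocked by array set 7 degradation, 18 translocon and glycosylation and 9 ER to Golgi genes rose, beside 7.49% of all tested genes.

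Transcripts of the sensors and the stress arm did not follow the chaperones upward in this fit. Of 23 tested genes of the unfolded protein response sensors and the integrated stress response 0 rose and 5 fell, with a median of -0.26. Over all tested genes 3.5% rose and 4.84% fell. With the array set as a block 1 of the 23 rose and 5 fell, and their median within set A was -0.20. Trib3, a pseudokinase induced by ATF4 and CHOP, had 4.82, 4.94, 4.22, 3.98 and 5.14 on the CRD arrays, against 5.59, 5.76, 6.48, 6.53 and 6.68 on the HFD arrays (-1.59 ± 0.34, adjusted p = 0.00486). CHOP (Ddit3), the stress factor downstream of PERK, had 7.89, 8.06, 7.99, 7.58 and 8.06 on the CRD arrays, against 8.61, 8.36, 8.84, 8.87 and 9.04 on the HFD arrays (-0.83 ± 0.17, adjusted p = 0.0037). The CRD arrays lay below all HFD arrays in both. The lipoprotein receptor Vldlr and the paired amino acid carriers Slc7a5 and Slc3a2 had changes of -1.13 ± 0.25, -1.04 ± 0.23 and -0.82 ± 0.24, all past the threshold. Atf5, a related bZIP factor that supports beta-cell survival under stress in mice, had 11.09, 11.29, 11.49, 10.64 and 11.34 on the CRD arrays, against 13.32, 12.65, 12.71, 13.35 and 13.59 on the HFD arrays (-1.96 ± 0.28, adjusted p = 0.00011). Atf4, Xbp1 and the sensor Ern1 had changes of -0.14 ± 0.37, -0.51 ± 0.41 and 0.13 ± 0.23, which did not pass.

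**Figure D3:**
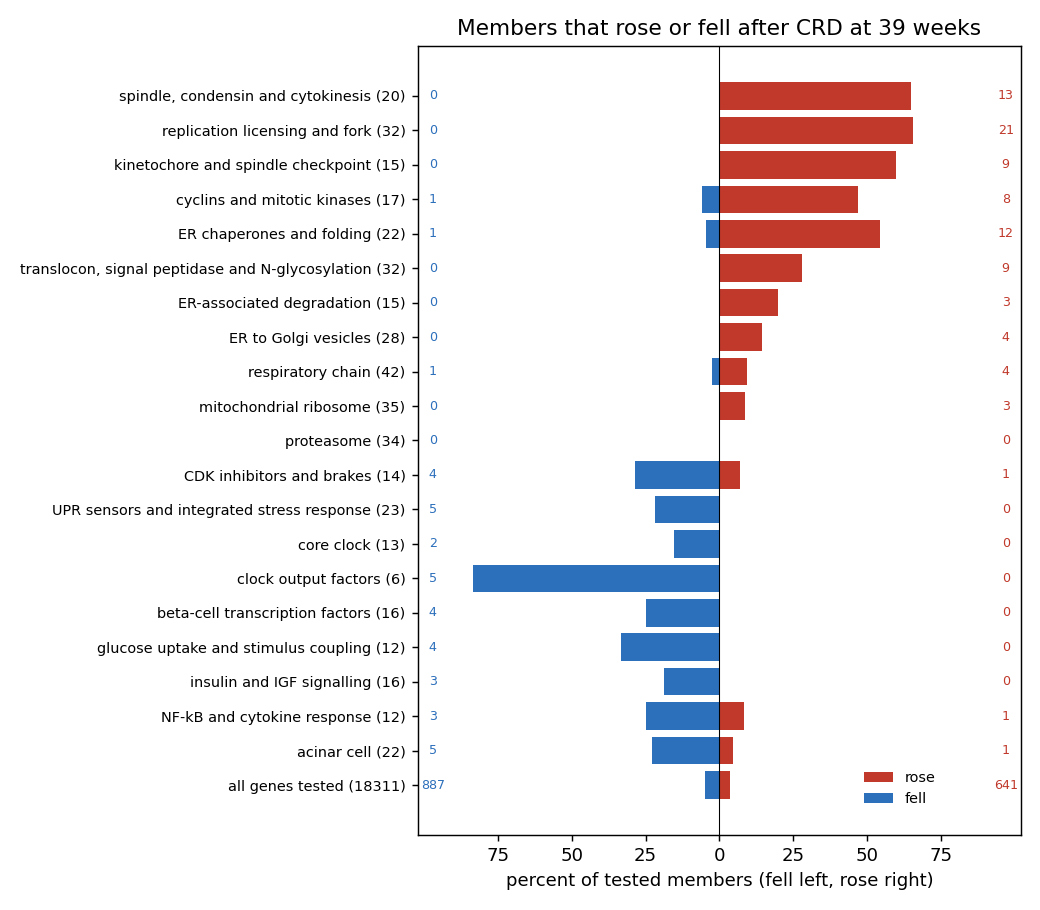
Percent of tested members (number in brackets) of each list that rose (red, right) or fell (blue, left) after CRD at 39 weeks, with the counts at the edges. Cell cycle and ER lists extend to the right and clock, beta-cell and stress lists to the left, beside 641 and 887 of 18311 over all genes.

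In the list of glucose uptake and stimulus coupling 4 of 12 tested genes fell and 0 rose, with a median of -0.49. GLUT2 (Slc2a2) had 8.75, 8.67, 10.10, 9.29 and 8.58 on the CRD arrays, against 12.64, 11.67, 11.71, 13.10 and 13.36 on the HFD arrays, the deepest fall among the genes named here at -3.42 ± 0.48, adjusted p = 8.65e-05. CRD replicate 3 was the highest of its group and still lay 1.57 below the lowest HFD array. ZnT8 (Slc30a8), the zinc carrier of insulin granules, had 8.86, 8.92, 9.45, 8.82 and 8.91 on the CRD arrays, against 11.02, 10.32, 10.63, 11.00 and 11.64 on the HFD arrays (-1.93 ± 0.25, adjusted p = 3.24e-05). Pyruvate carboxylase (Pcx), which feeds anaplerosis in beta cells, fell by 1.64 ± 0.25 and urocortin 3 (Ucn3), a marker of mature beta cells, by 1.18 ± 0.24 on the log2 scale. The incretin receptor Glp1r had 7.14, 6.85, 6.59, 6.72 and 6.87 on the CRD arrays, against 8.39, 8.34, 8.50, 8.34 and 8.53 on the HFD arrays (-1.58 ± 0.15, adjusted p = 7.35e-07). It and the galanin receptor Galr1 (-0.68 ± 0.19) were the 2 of 17 nutrient and incretin receptors past the threshold, beside 8.34% called over all tested genes. The receptor list had a median of -0.04, with 8 members above 0 and 9 below. In the fit blocked by array set 2 of its members rose and 2 fell.

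Of 16 beta-cell transcription factors 4 fell and 0 rose. ChREBP (Mlxipl), the glucose-responsive factor, had 9.88, 9.91, 9.86, 8.99 and 9.77 on the CRD arrays, against 11.57, 10.97, 11.12, 11.56 and 11.95 on the HFD arrays (-1.75 ± 0.28, adjusted p = 0.000311), with CRD replicate 4 the lowest. Neurod1, which drives insulin transcription, had 8.16, 7.86, 7.50, 7.38 and 8.53 on the CRD arrays, against 8.83, 8.64, 8.81, 8.54 and 8.68 on the HFD arrays (-0.81 ± 0.22, adjusted p = 0.0211). Isl1 and Nkx6-1, factors of endocrine and beta-cell identity, changed by -0.78 ± 0.23 and -0.75 ± 0.21, and the groups overlapped for Nkx6-1. Pdx1 and Mafa, the other activators of the insulin gene, overlapped between the groups, with changes of -0.15 ± 0.25 and -0.13 ± 0.19 (adjusted p = 0.793 and 0.756). Tle3, a Groucho corepressor, had 7.77, 7.62, 7.67, 6.63 and 7.84 on the CRD arrays, against 9.46, 9.18, 9.17, 9.86 and 9.74 on the HFD arrays (-1.98 ± 0.22, adjusted p = 6.69e-06). In bulk islets fewer cells of a type and less RNA per cell cannot be told apart. Of the other beta-cell genes, the granule phosphatase-like Ptprn rose by 1.18 ± 0.16 and the convertase Pcsk1 by 0.65 ± 0.19, while proSAAS (Pcsk1n), granuphilin (Sytl4) and complexin 2 (Cplx2) fell by 0.82 ± 0.16, 1.27 ± 0.27 and 0.72 ± 0.20 on the log2 scale. The groups overlapped for Pcsk1 and Cplx2. In the granin and prohormone processing list 2 of 13 tested genes rose and 1 fell. In the granule docking list 2 of 19 fell and 0 rose, beside 8.34% called over all tested genes. Resp18, a granule-matrix protein, had 9.97, 10.11, 10.77, 9.75 and 10.43 on the CRD arrays, against 12.39, 11.86, 12.25, 12.55 and 12.60 on the HFD arrays (-2.13 ± 0.28, adjusted p = 4.97e-05).

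Targets and metabolic enzymes downstream of glucose were mixed. In the list of ChREBP targets and lipid synthesis 1 of 21 tested genes rose and 1 fell. In that of fatty acid oxidation 2 of 21 fell and 0 rose. In that of glycolysis, pyruvate and pentose phosphate 1 of 26 rose and 3 fell, beside 8.34% called over all tested genes. Arrdc4, an arrestin-like ChREBP target, had 7.88, 7.84, 7.44, 6.57 and 6.89 on the CRD arrays, against 5.49, 5.43, 5.52, 5.11 and 6.12 on the HFD arrays (1.79 ± 0.25, adjusted p = 7.87e-05), opposite to Mlxipl itself. Its paralogue Txnip, which binds thioredoxin, had 14.03, 14.44, 15.22, 12.86 and 12.51 on the CRD arrays, against 12.95, 11.92, 12.76, 13.13 and 14.39 on the HFD arrays, and the groups overlapped. The change of Txnip was 0.78 ± 0.53, adjusted p = 0.453, and 1.13 ± 0.34 when blocked by array set (adjusted p = 0.0278). Hadh, whose loss disinhibits insulin secretion, had 12.34, 12.43, 13.29, 12.92 and 12.60 on the CRD arrays, against 14.41, 13.65, 13.83, 14.48 and 15.01 on the HFD arrays (-1.56 ± 0.37, adjusted p = 0.0104). Lactate dehydrogenase B (Ldhb), of pyruvate and lactate exchange, had 6.14, 6.11, 5.50, 5.86 and 6.38 on the CRD arrays, against 7.42, 7.32, 7.59, 7.61 and 7.60 on the HFD arrays (-1.51 ± 0.23, adjusted p = 0.000173), and Gapdh rose by 0.81 ± 0.19. The groups overlapped for Gapdh. Among 42 respiratory chain genes 4 rose and 1 fell, and 16 and 1 when blocked by array set. The one that fell was Cox6a2, a tissue-restricted cytochrome oxidase subunit, with 8.46, 8.16, 9.68, 8.17 and 8.09 on the CRD arrays, against 10.64, 10.34, 10.78, 10.50 and 10.90 on the HFD arrays (-2.12 ± 0.36, adjusted p = 0.000583). Within set C the difference of Cox6a2 was -0.82 and within set A -2.37. Those that rose were Atp5g1 (1.40 ± 0.23), Ndufa4 (1.08 ± 0.17), Uqcrq (0.87 ± 0.23) and Cox7a2 (0.80 ± 0.21). Of 35 mitochondrial ribosomal genes 3 rose, led by Mrpl17 (1.10 ± 0.15), and 20 with the block. Over all tested genes 8.34% were called and 3.5% rose, and 15.3% and 7.49% with the block. Of 34 proteasome genes 0 passed in limma, 2 had an unadjusted p under 0.05, and 3 rose with the block.

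Clock output genes fell in 5 of 6 tested members. These are transcription factors whose level swings daily under the CLOCK and BMAL1 proteins. The labels do not give the time of day at which islets were collected. The median of the 6 was -2.74. The remaining member was higher on CRD without passing, and it rose in the fit blocked by array set. Dbp, founder of the PAR bZIP family, had 7.64, 7.75, 7.70, 7.37 and 7.14 on the CRD arrays, against 10.50, 10.26, 10.33, 10.94 and 10.93 on the HFD arrays (-3.07 ± 0.22, adjusted p = 2.06e-08). Tef, of the same family, had 7.93, 7.88, 8.30, 7.01 and 7.83 on the CRD arrays, against 10.93, 10.19, 10.17, 11.12 and 11.28 on the HFD arrays (-2.95 ± 0.31, adjusted p = 2.62e-06), and Hlf, the third member, had 4.11, 3.64, 4.10, 2.87 and 3.39 on the CRD arrays, against 6.51, 6.60, 6.31, 6.49 and 7.11 on the HFD arrays (-2.98 ± 0.27, adjusted p = 3.88e-07). The nuclear receptors REV-ERB beta (Nr1d2) and REV-ERB alpha (Nr1d1), repressors of Bmal1, had 5.82, 5.91, 6.42, 5.46 and 5.78 on the CRD arrays, against 8.30, 7.89, 8.21, 8.74 and 8.87 on the HFD arrays for Nr1d2 and 8.26, 8.51, 8.38, 8.27 and 8.51 on the CRD arrays, against 9.73, 10.06, 10.16, 9.98 and 9.32 on the HFD arrays for Nr1d1. They changed by -2.53 ± 0.31, adjusted p = 2.03e-05 and -1.46 ± 0.17, adjusted p = 7e-06. For all 5 no HFD array reached down to any CRD array, and the change of Hlf, dim on the CRD arrays, was -1.98 ± 0.18 with 16 added before the log. The promoter of Tef is shown for its E-box (CACGTG, in capitals), the site of CLOCK and BMAL1, 127 bases before the start.
Tef, chr15:81802423-81802722, plus strand: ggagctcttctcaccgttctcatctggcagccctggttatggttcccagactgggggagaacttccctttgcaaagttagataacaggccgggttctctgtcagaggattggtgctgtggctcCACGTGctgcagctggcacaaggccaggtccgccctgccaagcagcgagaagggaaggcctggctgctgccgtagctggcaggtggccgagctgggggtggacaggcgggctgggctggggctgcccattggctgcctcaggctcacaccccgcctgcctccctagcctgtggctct
An E-box was in 1 of the 6 tested members with a promoter in the table (16.7%) and in 8.79% of all tested genes with one. In the core loop 2 of 13 fell. Per2, a repressor of CLOCK and BMAL1, had 5.48, 5.61, 5.53, 5.40 and 5.10 on the CRD arrays, against 6.89, 6.66, 7.02, 6.99 and 7.83 on the HFD arrays (-1.65 ± 0.30, adjusted p = 0.00116), and Bhlhe41 fell by 1.05 ± 0.28 on the log2 scale. The activators Clock and Npas2 had changes of -0.53 ± 0.26 and 0.34 ± 0.26, and Bmal1, listed as Arntl, 0.78 ± 0.45, none past the threshold, although Clock and Arntl passed with array weights and Arntl also when the 10 arrays of 39 weeks were blocked by set.

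**Figure D4:**
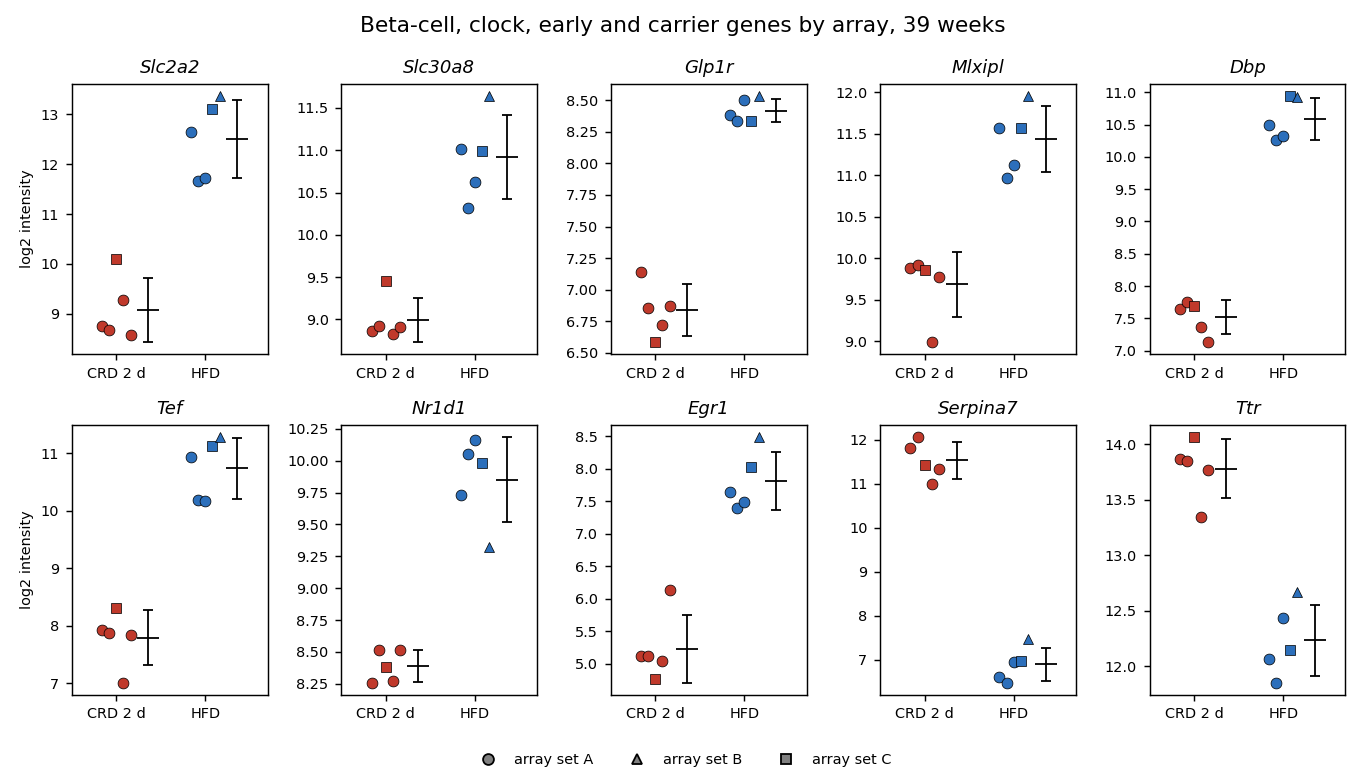
Log2 intensity (vertical) of 10 genes on the 5 CRD arrays (red, left) and 5 HFD arrays (blue, right) at 39 weeks, with the array set as the point's shape and the mean ± SD beside the points. Slc2a2, Slc30a8, Glp1r, Mlxipl, Dbp, Tef, Nr1d1 and Egr1 are lower on every CRD array, and Serpina7 and Ttr higher.

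Of 21 immediate early genes 2 fell and 1 rose, and of 12 NF-kB and cytokine genes 3 fell and 1 rose. Over all tested genes 4.84% fell and 3.5% rose. The NF-kB list had a median of 0.05, with 7 members above 0 and 5 below. Egr1, an immediate early factor induced by glucose and calcium in beta cells, had 5.12, 5.13, 4.76, 5.04 and 6.13 on the CRD arrays, against 7.64, 7.40, 7.50, 8.03 and 8.49 on the HFD arrays (-2.58 ± 0.38, adjusted p = 0.000124), with CRD replicate 5 above the others of its group. The zinc finger factor Klf6 fell by 1.06 ± 0.32 on the log2 scale and the salt-inducible kinase Sik1 rose by 0.95 ± 0.25. Nfkbia, the inhibitor that NF-kB itself induces, had 9.06, 9.07, 9.23, 8.32 and 9.31 on the CRD arrays, against 10.44, 9.93, 9.99, 10.75 and 11.09 on the HFD arrays (-1.44 ± 0.23, adjusted p = 0.000269). Nfkbiz, an IkB of the nucleus, had 2.91, 3.35, 5.48, 4.25 and 4.87 on the CRD arrays, against 5.89, 5.91, 5.55, 6.72 and 7.30 on the HFD arrays (-2.10 ± 0.42, adjusted p = 0.00265), where CRD replicate 3 came within 0.07 of the lowest HFD array; its change was -1.40 ± 0.28 with 16 added before the log. Relb fell by 0.99 ± 0.26 on the log2 scale and Bcl3 rose by 0.87 ± 0.21. Among 16 insulin and IGF signalling genes 3 fell and 0 rose, beside the same 4.84% and 3.5% over all tested genes. Irs1, the insulin receptor substrate, had 4.80, 4.99, 4.54, 4.21 and 5.38 on the CRD arrays, against 6.24, 5.79, 5.78, 6.30 and 6.70 on the HFD arrays (-1.38 ± 0.34, adjusted p = 0.0139), and the forkhead factor Foxo1 and the kinase subunit Pik3ca fell by 0.62 ± 0.15 and 0.62 ± 0.18. The cytokine-signalling factors Stat5a and Stat5b fell by 0.96 ± 0.27 and 0.92 ± 0.21 on the same scale.

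The largest rise among tested genes outside the cell cycle was in a thyroid hormone carrier. Serpina7, thyroxine-binding globulin, had 11.82, 12.06, 11.44, 10.99 and 11.35 on the CRD arrays, against 6.62, 6.48, 6.96, 6.97 and 7.46 on the HFD arrays (4.63 ± 0.31, adjusted p = 1.8e-08). Transthyretin (Ttr), the other carrier and an abundant alpha-cell transcript, had 13.87, 13.85, 14.06, 13.35 and 13.77 on the CRD arrays, against 12.06, 11.85, 12.43, 12.15 and 12.67 on the HFD arrays (1.55 ± 0.21, adjusted p = 5.34e-05). Every CRD array was above every HFD array in both. The receptors went the other way: Thra had 6.86, 6.53, 6.33, 6.0 and 6.80 on the CRD arrays, against 7.96, 7.91, 7.90, 7.82 and 8.18 on the HFD arrays (-1.45 ± 0.19, adjusted p = 4.34e-05), and Thrb fell by 0.68 ± 0.21 on the log2 scale. Further genes with tall rises were C1qtnf1, a secreted C1q and TNF-related protein, with 9.07, 8.59, 8.44, 8.64 and 8.66 on the CRD arrays, against 5.63, 5.43, 5.49, 5.42 and 5.66 on the HFD arrays (3.16 ± 0.16, adjusted p = 2.76e-10), and the tweety-family membrane protein Ttyh1, with 8.84, 8.54, 8.51, 8.29 and 8.43 on the CRD arrays, against 4.01, 5.75, 4.68, 6.56 and 5.54 on the HFD arrays (3.21 ± 0.39, adjusted p = 1.63e-05). The HFD arrays were spread widely for Ttyh1, from 4.01 to 6.56. The omega-class glutathione S-transferase Gsto2 had 9.17, 9.32, 9.34, 8.57 and 9.16 on the CRD arrays, against 5.83, 5.75, 6.30, 6.18 and 6.78 on the HFD arrays (2.94 ± 0.24, adjusted p = 1.19e-07). Its mu-class relatives moved the opposite way. Gstm3 had 9.41, 9.35, 8.85, 8.49 and 9.30 on the CRD arrays, against 11.29, 10.97, 11.29, 11.59 and 12.02 on the HFD arrays (-2.35 ± 0.27, adjusted p = 7e-06), and Gstm1 fell by 2.04 ± 0.27 on the log2 scale; mu-class copies resemble each other and may share probe signal. In that family of 14 tested genes, grouped after values were seen, 3 rose and 4 fell. Glutathione peroxidase Gpx3 and thioredoxin Txn1 rose by 1.18 ± 0.22 and 1.13 ± 0.21, and the zinc carrier Slc39a11 by 2.06 ± 0.34.

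The 15 deepest falls of well-expressed genes also held the following. Camk2n1, an inhibitor of calmodulin kinase II, had 10.33, 10.43, 10.76, 10.40 and 10.67 on the CRD arrays, against 13.08, 12.15, 12.11, 13.08 and 13.33 on the HFD arrays (-2.23 ± 0.31, adjusted p = 8.37e-05). Pcp4, a small calmodulin-binding protein, had 7.17, 7.37, 6.56, 6.12 and 7.09 on the CRD arrays, against 9.20, 8.97, 9.38, 9.46 and 9.78 on the HFD arrays (-2.50 ± 0.30, adjusted p = 1.24e-05). The rest were the peptidase Dpp7 (-2.40 ± 0.38), the sulfotransferase Sult1c2 (-2.25 ± 0.42) and the RAD52-like Rdm1 (-2.0 ± 0.25). The IP3 receptor Itpr3 and the calcium channel subunit Cacna2d1 fell by 1.11 ± 0.32 and 0.96 ± 0.20 on the log2 scale. They were 2 of 18 ion channel genes, beside 8.34% called over all tested genes. In the fit blocked by array set 5 of the 18 fell and 1 rose, beside 15.3% called over all.

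Markers of the other islet and pancreatic cells were read in the same way. Of 6 tested alpha-cell markers 1 rose, Ttr (1.55 ± 0.21), and 1 fell, glucagon. Glucagon (Gcg) had 13.90, 14.12, 14.89, 14.34 and 14.34 on the CRD arrays, against 15.20, 14.96, 14.92, 15.35 and 15.67 on the HFD arrays (-0.90 ± 0.27, adjusted p = 0.0402), with CRD replicate 3 within 0.03 of the lowest HFD array. Somatostatin (Sst) and pancreatic polypeptide (Ppy) overlapped, with changes of -0.51 ± 0.26 and -0.19 ± 0.22 (adjusted p = 0.28 and 0.7). In the delta-cell list 1 of 6 tested markers fell, without overlap. Of that list 5 members were below 0 and 1 above, with a median of -0.26. Of 22 tested acinar markers 5 fell and 1 rose, with a median of -2.12. The lipase Cel had 8.28, 7.80, 8.11, 8.94 and 10.37 on the CRD arrays, against 10.36, 11.63, 11.73, 10.97 and 11.95 on the HFD arrays (-2.63 ± 0.81, adjusted p = 0.049), and the groups overlapped through CRD replicate 5. Trypsinogen 1 (Prss1) and the chymotrypsin-like Ctrl changed by -1.97 ± 0.60 and -1.99 ± 0.58, and Bhlha15, the factor MIST1 of secretory cells, rose by 0.73 ± 0.20. Of 11 pericyte and stellate markers 3 fell, among them decorin (Dcn) by 1.77 ± 0.41 on the log2 scale, and of 10 macrophage markers 1 fell, the complement gene C1qa (-1.15 ± 0.28). In the endothelial list 1 of 13 tested markers fell, with 10 members below 0, 3 above and a median of -0.25. Over all tested genes 4.84% fell and 3.5% rose. Of 4 tested adipocyte markers 1 fell, Fabp4 (-0.93 ± 0.28), while the other 3 had changes above 0 that did not pass and the list's median was 0.24. Of 19 tested duct, T- and B-cell, erythroid, and Schwann-cell and neuron markers 0 passed in limma, 1 had an unadjusted p under 0.05, and 2 rose in the fit blocked by set.

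The same diet step at 18 weeks called 3120 genes up (17%) and 1445 down (7.89%), 24.9% in all. The 2 ages share no array. Of the 641 genes that rose at 39 weeks 585 rose also at 18 weeks, and of the 887 that fell 386 fell and 1 rose. The difference of the CRD effect between the ages passed for 0 genes in limma, with a smallest adjusted p of 0.222, while 4043 genes (22.1%) had an unadjusted p under 0.05, and 327 in the fit blocked by set. With array weights in the fit 8105 genes passed. At 18 weeks 4 of 5 CRD arrays were of set B and 4 of 5 HFD arrays of set A. The change of Cdk1 was 5.22 ± 0.36 at 39 weeks and 4.53 ± 0.36 at 18 weeks, that of Serpina7 4.63 ± 0.31 and 5.36 ± 0.31, that of Dbp -3.07 ± 0.22 and -2.57 ± 0.22 and that of Slc2a2 -3.42 ± 0.48 and -2.81 ± 0.48. The ER lists had a median of 0.48 at 39 weeks and 1.17 at 18 weeks. The acinar list had medians of -2.12 and 2.42, and Cel differed between the ages by -5.00 ± 1.15 (adjusted p = 0.222). Trib3 changed by -1.59 ± 0.34 and 0.61 ± 0.34, Egr1 by -2.58 ± 0.38 and -0.74 ± 0.38, Per2 by -1.65 ± 0.30 and -0.16 ± 0.30, and Aldh1a3, a retinaldehyde-oxidising enzyme found in failing mouse beta cells, by 0.55 ± 0.25 and 1.79 ± 0.25. None of these age differences passed (adjusted p = 0.222, 0.222, 0.222 and 0.222).

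**Figure D5:**
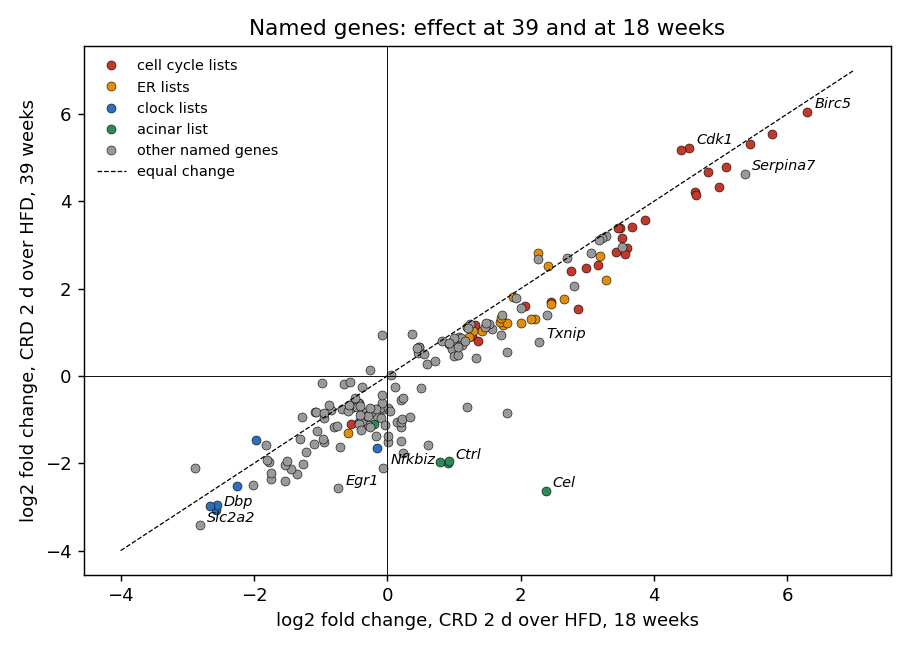
Log2 fold change of CRD over HFD at 39 weeks (vertical) against that at 18 weeks (horizontal) for the named genes, coloured by list, with the dashed line marking equal change. Cell cycle genes fill the upper right, Slc2a2 and the clock output genes the lower left, and the acinar gene Cel lies at -2.63 (39 weeks) and 2.37 (18 weeks).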

How the data were processed

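The table the authors deposited holds 1 intensity per probe for each of the 20 arrays, on a linear scale, for 59448 probes. Per the submitters' processing notes, Agilent Feature Extraction 11 was used. The sorted values are identical in all 20 columns, so the deposited intensities had been quantile normalized. A shift common to all genes can therefore not be seen. Labelling was with Cy3, per the labels' protocols. These allow either oligo-dT or mixed priming and do not assign it to arrays. The table has no detection flags, and no column was left unmapped.

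The deposited intensities were turned to log2. Platform annotation gave 1 symbol to 30010 probes and none to 29438, all 30010 gene IDs matched RefSeq, and the probe of highest mean stood for each of 26159 genes. The lowest 30% by mean over 20 arrays were left out. Differences were tested by limma 3.58.1 (R 4.3.3), with its moderated statistics from 1 model of the 4 groups and 20 arrays, and p-values were adjusted over 18311 genes. The code was tested on simulated data. Each array is from 1 mouse, per the series' design text. The number of arrays limits the precision, and intensities carry no count-based interval.

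The members and the 57 lists, 44 of pathways and 13 of cell types, were chosen with earlier results of these data known. Named genes were the 15 largest rises and falls among well-expressed genes whose groups did not overlap, up to 6 passing members of each list, or 2 by p as values, and a set of islet genes. Ccnd2, Calr, Pdia6, Alg12, Hspa5, Syvn1, Dnajc3, Canx, Atf4, Xbp1, Ern1, Clock, Npas2, Arntl, H1f5, H3f3a, H3f3b, Slc16a9 and Slc16a12 were named after their values were seen. Array sets came from average-linkage clustering. Alternatives were blocking by array set, set A alone, the 10 arrays of 39 weeks alone, an offset of 16, other filters, the mean of probes, moderated variance with trend, array weights, a replicate block and leaving out 1 array at a time. Probes with no symbol entered no comparison of named genes. Promoters came from RefSeq (GRCm38.p6). Ins1 was not analysed here.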

Additional observations from a re-analysis of the deposited data

Results flagged for a closer look

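In groups of 5 arrays, 28 of 352 values tested lay apart from the other 4 by more than Dixon's value of 0.71 of the range; chance alone marks about 1 in 20 groups. CRD replicate 3, the CRD array of set C, was the highest of its group in 7 named genes: log2 intensities of 7.80 for Cdc6, 8.25 for Cdt1, 7.02 for Gins2, 10.18 for E2f1, 12.66 for Edem2, 9.68 for Cox6a2 and 9.45 for Slc30a8. CRD replicate 4 was the lowest of its group in 10, at 8.99 for Mlxipl, 6.63 for Tle3, 8.32 for Nfkbia, 6.60 for Stat5b, 10.27 for Slc3a2, 9.38 for Itpr3, 8.57 for Gsto2, 6.66 for Kif3a, 5.77 for Bbs5 and 5.19 for Slc16a9. CRD replicate 5 was the highest for Egr1, at 6.13. On the HFD arrays, replicate 5 was the highest for Sst (15.08) and Rrm2 (5.19), replicate 3 the lowest for Ins2 (17.82) and replicate 4 the lowest for Npas2 (7.04).

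Summed marker intensities stood apart in the same way. CRD replicate 3 had the highest sum of alpha-cell markers in its group, 49079.4, and CRD replicate 5 the highest of acinar markers, 61386.7. HFD replicate 5 was the highest for delta-cell markers at 38039.5, for PP and epsilon cell markers at 117408.3 and for Schwann cell and neuron markers at 4158.9, and HFD replicate 1 for erythroid markers at 19571.0. Probes with no gene name were used in no comparison above. Of the 20606 of them that passed the filter 430 rose and 1230 fell (8.06%), with a median log2 fold change of 0.04, and 789 rose and 1612 fell when blocked by array set.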

How the results depend on the processing

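All 144 named genes past the threshold kept their direction in each of the 23 settings that gave them a value. Against 641 rising and 887 falling genes as reported, blocking by array set gave 1372 and 1427 on 20 arrays and 1247 and 1435 on the 10 arrays of 39 weeks, array weights 2259 and 2150, and array set A alone, with 7 arrays, 427 and 220. Without array sets B and C at 39 weeks, an alternative chosen after seeing the data, 383 rose and 201 fell. The 10 arrays alone gave 691 and 1151, the offset 667 and 915, no filter 766 and 852, the lowest 50% left out 497 and 735, the mean of probes 669 and 909, and trend with robust variance 638 and 899. Leaving out 1 array at a time gave 467 to 655 rising and 507 to 880 falling genes. The replicate block gave 334 and 374, and 109 of the 144 named calls passed in it. Replicate numbers share no mouse, and the deviations of same-numbered arrays correlated at -0.097, -0.083, -0.495, -0.306 and -0.227, so the numbers give no pairing. Of the named calls 89 passed within set A, 133 without a filter and 141 to 144 in the other settings of 20 arrays that gave a value to all. Among genes not called, H3f3a, Syvn1 and Txnip passed when blocked by set on 20 arrays, Arntl, H3f3a and Syvn1 when blocked on 10, Aldh1a3, Arntl, Clock, H3f3a, Syvn1 and Txnip with array weights, and H3f3a with the 10 arrays alone and without HFD replicate 2 or 3. The difference between the ages passed for 8105 genes with array weights and for 0 in every other setting with a value. The cause of these shifts was not tested, beyond the smaller number of arrays in some settings. Of 59 list medians 44 moved by less than 1 SD in all settings, and the 19 beyond 0.3 in size kept their sign. In the 6 cell cycle lists 54 members rose, against 89 without the filter and 26 with the lowest 50% left out. Genes dim in either group have folds set by an unknown background.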

Other observations

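Several lists held few calls. The primary cilium, a single antenna on most islet cells, is built by intraflagellar transport. Of its 33 tested genes 3 fell and 0 rose, a share close to the 8.34% called over all tested genes, and the median log2 fold change was -0.26 against 0.02 over all of them. Ift88, a core subunit of the transport trains, had log2 intensities of 7.73, 7.58, 7.75, 6.92 and 7.37 on the CRD arrays, against 9.01, 8.53, 8.53, 8.98 and 9.19 on the HFD arrays (-1.38 ± 0.34, adjusted p = 0.0134, limma). The kinesin subunit Kif3a and the BBSome subunit Bbs5 fell by 0.66 ± 0.18 and 0.72 ± 0.19 on the log2 scale, and CRD replicate 4 was the lowest array for all 3 genes. Among 28 genes of the TCA cycle and branched-chain amino acid breakdown 1 rose and 3 fell. Bckdhb and Dbt encode subunits of the same branched-chain ketoacid dehydrogenase. Bckdhb had 9.93, 10.21, 10.59, 9.60 and 9.86 on the CRD arrays, against 8.72, 8.17, 8.24, 8.74 and 9.37 on the HFD arrays (1.39 ± 0.36, adjusted p = 0.0187). Dbt had 4.28, 4.42, 4.05, 3.83 and 4.54 on the CRD arrays, against 5.17, 5.12, 5.26, 5.55 and 6.25 on the HFD arrays (-1.25 ± 0.25, adjusted p = 0.00229). With 16 added to each intensity before the log the change of Dbt, dim on the CRD arrays, was -0.81 ± 0.19. The groups did not overlap for either subunit, and they changed in opposite directions.

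The glutamine carrier Slc1a5 had 5.75, 5.87, 5.64, 5.48 and 5.65 on the CRD arrays, against 3.86, 4.58, 4.83, 4.64 and 4.38 on the HFD arrays (1.22 ± 0.19, adjusted p = 0.000273), the 1 call among 21 amino acid transport genes. Of 34 nucleolar and 34 cytosolic ribosome genes 3 and 1 rose and 0 fell. Of the heat shock and lysosome lists 0 of 21 and 0 of 27 genes passed in limma, and an unadjusted p under 0.05 was reached by 1 heat shock gene, lower on CRD, and by 1 higher and 3 lower lysosome genes. Looked at after their values were seen, 3 of 316 zinc finger genes of the Zfp series rose and 23 fell (8.23% called, against 8.34% of all tested genes). In the same way 2 of 8 Slc16 carriers fell, Slc16a9 by 1.97 ± 0.24 and Slc16a12 by 0.94 ± 0.26 on the log2 scale.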
